A study of Mus musculus with 2 samples.

Results

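The 10 genes described here encode cytokines, receptors and inhibitors of the IL-1 family, and they were taken by symbol from the 32285 genes listed in the deposited files. Their unique transcript counts (UMIs) were summed per cell class in each of 2 single-cell RNA libraries and over both. Each library came from tumors that grew after KPC cells, a mouse pancreatic cancer line, were injected in Matrigel under the capsule of the pancreas. The sample labels name the genotypes FLOX and MCT1-KO. According to the methods, MCT1-KO mice carry Col1a2-CreERT2, a tamoxifen-dependent Cre recombinase driven by the promoter of a collagen gene, and are meant to lose MCT1, the lactate transporter encoded by Slc16a1, in pancreatic stellate cells (PSCs). All mice were male, the purchased C57BL/6 mice were 8 weeks old, injections of tamoxifen, or of corn oil as its vehicle, came before the implantation, and tumors were taken 2 to 3 weeks after it. The sources used here do not give how many tumors entered a library, nor whether the flox mouse of this library carried Cre or which of these injections it received. The genotypes are those of the host mice, since the implanted tumor cells come from another mouse line.

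IL-1 alpha and IL-1 beta are proinflammatory ligands that bind the receptor IL1R1, which then recruits the shared subunit IL1RAP and signals through MYD88 and IRAK kinases to NF-kB. IL-1 receptor antagonist, encoded by Il1rn, occupies IL1R1 without signalling, and IL1R2 is a decoy receptor that binds the ligands but lacks the signalling domain. IL-33 is a nuclear alarmin released by damaged stromal and epithelial cells and read by ST2, the product of Il1rl1, again together with IL1RAP. IL-18 is held in check by the secreted IL-18 binding protein, encoded by Il18bp. IL-1 beta and IL-18 are made as precursors that need cleavage, mostly by caspase-1 in inflammasomes, so that transcript counts do not measure the active cytokines.

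Where these genes start in the genome is shown for the ones on which the results turn most: Il1a, Il1b and Il1r2, which had their highest level in neutrophil-like cells, and Il33, which had it in PSC-like cells. The 250 bases upstream of each RefSeq start on build GRCm38.p6 were read 5′ to 3′ in the direction of transcription, with all 10 genes found in that table. Matches on either strand to 6 short motifs stand in capitals: TATAAA for the box named after its first letters in core promoters, TGANTCA for AP-1, GGG followed by any 2 bases and TTTCC for NF-kB, GAGGAA for the core of PU.1 sites, TTGNNCAA for C/EBP and TTCNNNGAA for sites of the STAT type, called GAS. Of 32851 mouse promoter windows of this length, they occur in 12.4%, 6.75%, 1.41%, 23.3%, 5.65% and 7.02%. The windows are chr2:129309973-129310222 on the minus strand for Il1a, chr2:129371140-129371389 on the minus strand for Il1b, and chr1:40085843-40086092 on the plus strand for Il1r2. For Il33 the table has 2 starts on the plus strand, with windows at chr19:29924863-29925112 and chr19:29945540-29945789. The windows of Il1r2 and of the second Il33 start lie inside the annotated genes.
Il1a: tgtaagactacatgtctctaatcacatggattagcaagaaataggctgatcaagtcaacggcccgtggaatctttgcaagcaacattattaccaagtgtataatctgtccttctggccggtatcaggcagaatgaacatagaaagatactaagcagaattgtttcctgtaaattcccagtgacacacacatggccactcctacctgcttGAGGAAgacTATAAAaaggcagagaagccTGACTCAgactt
Il1b: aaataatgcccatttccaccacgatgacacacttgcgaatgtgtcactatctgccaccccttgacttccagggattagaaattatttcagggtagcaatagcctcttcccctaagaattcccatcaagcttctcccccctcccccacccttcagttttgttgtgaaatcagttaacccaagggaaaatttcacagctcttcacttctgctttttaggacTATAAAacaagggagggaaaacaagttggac
Il1r2: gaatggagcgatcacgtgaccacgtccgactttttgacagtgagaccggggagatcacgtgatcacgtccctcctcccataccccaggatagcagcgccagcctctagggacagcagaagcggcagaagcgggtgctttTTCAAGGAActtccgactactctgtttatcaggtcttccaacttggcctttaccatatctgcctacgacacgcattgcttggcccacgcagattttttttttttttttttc
Il33 first start: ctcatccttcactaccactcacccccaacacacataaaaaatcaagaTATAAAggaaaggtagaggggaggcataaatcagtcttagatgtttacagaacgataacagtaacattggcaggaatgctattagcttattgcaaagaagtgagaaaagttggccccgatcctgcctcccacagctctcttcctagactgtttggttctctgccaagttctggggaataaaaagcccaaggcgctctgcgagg
Il33 second start: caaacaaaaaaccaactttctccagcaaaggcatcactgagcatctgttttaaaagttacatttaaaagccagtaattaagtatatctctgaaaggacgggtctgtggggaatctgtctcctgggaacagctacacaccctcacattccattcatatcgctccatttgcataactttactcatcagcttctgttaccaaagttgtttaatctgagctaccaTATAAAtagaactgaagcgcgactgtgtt
Il1a holds a TATA box with its first base 32 bases before the start, a PU.1 core at 41 and an AP-1 match at 12, with no overlap between them. Il1b and the second start of Il33 hold a TATA box at 31 and 29 bases, the first Il33 start one at 203, and Il1r2 a match to the GAS motif at 111. Il1rn had an AP-1 match at 141 bases in 1 window and an NF-kB match at 51 in another of its 3, and Il18 a TATAAA on the opposite strand at 175. The windows of Il1r1, Il1rl1, Il18bp and Il1rap held no match. These matches describe letters in a window and were not linked to the counts.

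Cells were the barcodes of 500 UMIs or more with 200 to 5000 genes and no more than 8% mitochondrial UMIs, in all 8739 cells of the flox library and 11689 of the library labelled MCT1-KO, with a median of 4069 and 3706 UMIs per cell. The libraries held 177334432 and 151118092 UMIs in all. Cells were clustered and clusters named by marker genes, which gave 10 classes of 94 to 5760 cells. The 4 unnamed clusters held 25.2% and 27.6% of cells, mostly with few UMIs. Among the KPC-tumor-cell-like clusters, 3 of 5 had no marker of that class among their 10 leading genes, and the same held for 2 of 5 myeloid-like clusters (9 and 14), so these names rest on markers detected across the cluster. Acinar-like cells made up 0.561% of flox cells and 4.13% of the cells of the other library, and acinar markers summed to 192 and 6243 CPM (UMIs scaled to a class total of 1000000) in neutrophil-like cells, which lack them. The upper limit on genes removed 2062 and 1231 barcodes. The libraries shared 59 kept barcodes. Il1a, Il1b, Il1rn, Il1r1, Il1r2, Il33 and Il1rl1 were among the 2000 genes used for clustering, so their levels across classes are descriptions.

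Slc16a1, the targeted gene, was not lower in the library labelled MCT1-KO. In PSC-like cells it stood at 25.6 CPM in flox (57 UMIs) and 35.6 CPM in the other library (113 UMIs), a ratio of 1.39 (95% counting interval 1.005 to 1.95), and in no class was its CPM lower there. The kit reads transcript ends, and the sources used here do not give whether that end lies in the deleted part, so this value does not check the deletion. The paper reports lower MCT1 in PSCs of the knockout mice from its own reading of the single-cell data. It also reports this loss by western blot, PCR and immunofluorescence. Ratios are given as the CPM in the library labelled MCT1-KO over that in flox. With 1 library per genotype no difference was tested, and intervals cover counting error only. In sums over a class, fewer expressing cells and less RNA per cell cannot be told apart.

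The family divided between cell classes by gene. Il1a, Il1b, Il1rn, Il1r2 and Il1rap had their highest level in neutrophil-like cells, Il1r1 and Il33 in PSC-like cells, Il18 and Il18bp in myeloid-like cells (macrophages and monocytes), and Il1rl1 in T/NK-like cells. These leading classes were the same in each library alone. They were also the same for all 10 genes with the members left out of the clustering genes, an alternative chosen after seeing the data. Without integration of the libraries Il1r1 led in endothelial-like cells, and with cells classed by their own markers Il1rl1 led in B-like cells, or in plasma-like cells without the upper limit on genes.

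**Figure D1:**
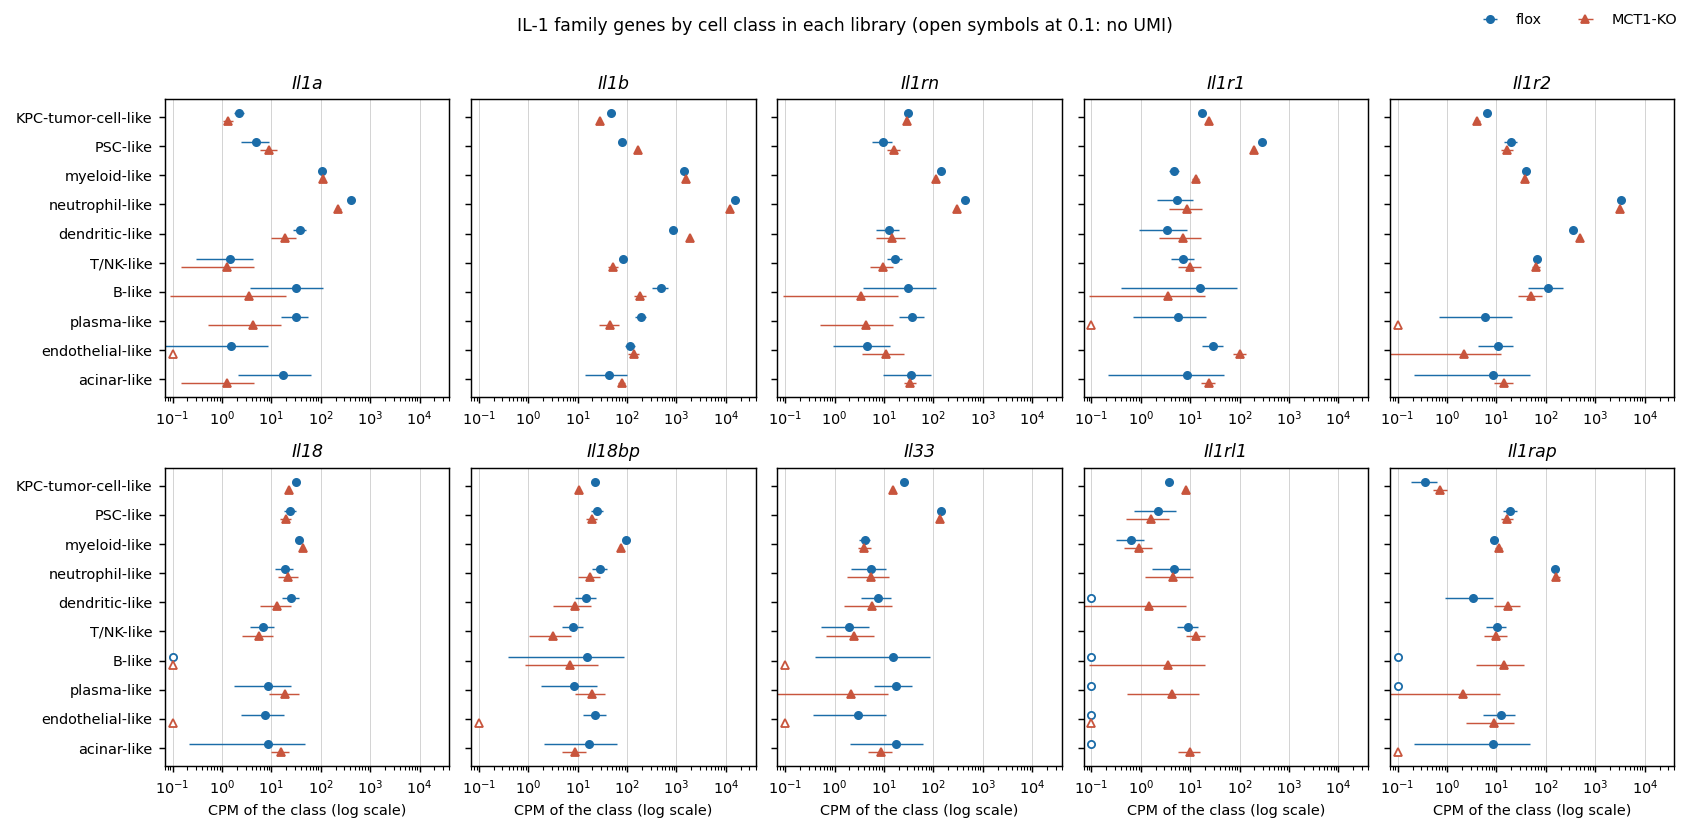
CPM of each IL-1 family gene (x axis, log scale) in 10 cell classes (y axis), with circles for the flox library, triangles for the library labelled MCT1-KO, bars for exact 95% Poisson intervals and open symbols at 0.1 for classes with no UMI. Il1b and Il1r2 peak in neutrophil-like cells and Il33 and Il1r1 in PSC-like cells in both libraries, whereas Il1rl1 is low in all classes.

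Il1b, the secreted ligand, reached 15683 CPM in flox neutrophil-like cells (20302 UMIs) and 12113 CPM in those of the library labelled MCT1-KO (11014 UMIs). The ratio was 0.772 (0.755 to 0.791), under 1 but within 1.5-fold. With free RNA subtracted it was 0.497 (0.486 to 0.509), past 1.5-fold. That step took 59.9% of the class total in flox and 37.2% in the other library. Such unlike shares lower the ratios of all genes that are rare in free RNA, so the shift is not particular to Il1b. A neutrophil-like cell held a median of 26 Il1b UMIs in flox and 13 in the other library, from a median depth of only 1471 and 1076 UMIs. At least 1 UMI was found in 97.4% and 96.0% of them, against 36.2% and 21.1% of KPC-tumor-cell-like cells, whose median depth was 17966 and 16171 UMIs. Thinned to 1000 UMIs per cell, which left out 54 and 268 neutrophil-like and 78 and 140 KPC-tumor-cell-like cells, the shares were 96.7% and 95.2% against 4.89% and 2.47%. The share in neutrophil-like cells was near its ceiling at either depth, and their cells were shallow before thinning, so the sizes of the drops on thinning are not comparable between these classes. Myeloid-like cells came next with 1410 and 1543 CPM and, being more numerous, held 50.3% of the Il1b UMIs of all kept cells, against 39.1% in neutrophil-like cells. Dendritic-like cells stood at 862 CPM in flox and 1856 CPM in the other library, so that they ranked below myeloid-like cells in flox and above them in the other. All remaining classes lay below 500 CPM in both libraries.

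Il1a, the ligand that is also active as a precursor and at the cell surface, stood at 412 CPM (377 to 448) in flox neutrophil-like cells and 223 CPM (194 to 256) in those of the library labelled MCT1-KO. The ratio of 0.542 (0.459 to 0.639) was the only one past 1.5-fold among the 10 genes in their leading classes, in a class in which 10.6% of all genes were that much lower. The 2 counting intervals did not overlap. Myeloid-like cells followed at 105 and 110 CPM, a ratio of 1.05 (0.971 to 1.12), and held 73.2% of all Il1a UMIs. Dendritic-like cells came after them at 38.2 and 18.8 CPM, and the order of the classes below them did not hold in both libraries. All 186 flox neutrophil-like cells with an Il1a UMI also held Il1b, as did 110 of 111 in the other library, where the product of the 2 shares gives 181 and 107 cells. With Il1b in nearly every cell of the class, this says nothing of a link between the genes.

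Il1a was also read in each neutrophil-like cluster. In cluster 7, led by Hdc, Il1r2 and Il23a, Il1a stood at 635 CPM in flox (463 UMIs) and 303 CPM in the other library (164 UMIs), a ratio of 0.478 (0.397 to 0.572). In cluster 13, led by the granule genes Retnlg and Mmp8 with S100a8 and S100a9, it stood at 124 and 106 CPM, a ratio of 0.855 (0.563 to 1.28). Both ratios were below 1, their intervals overlapped, and the difference between the clusters was not tested. Il1b was 15947 CPM over both libraries in cluster 7 and 11845 in cluster 13, and was lower in the library labelled MCT1-KO in both, with ratios of 0.840 and 0.635. Il1r2 and Il1b were among the leading genes of cluster 7, so the difference in their level between the clusters is part of how the clusters were drawn. Among the 5 myeloid-like clusters Il1a was highest in cluster 9, led by Arg1, Saa3 and Il1a itself, at 320 CPM in flox and 406 in the other library, a ratio of 1.27 (395 and 500 cells). It was 0.477 in the C1q-high cluster 1 and 0.373 in cluster 14, led by cell-cycle genes. The ratio near 1 in myeloid-like cells as a whole therefore held clusters with opposite differences.

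**Figure D2:**
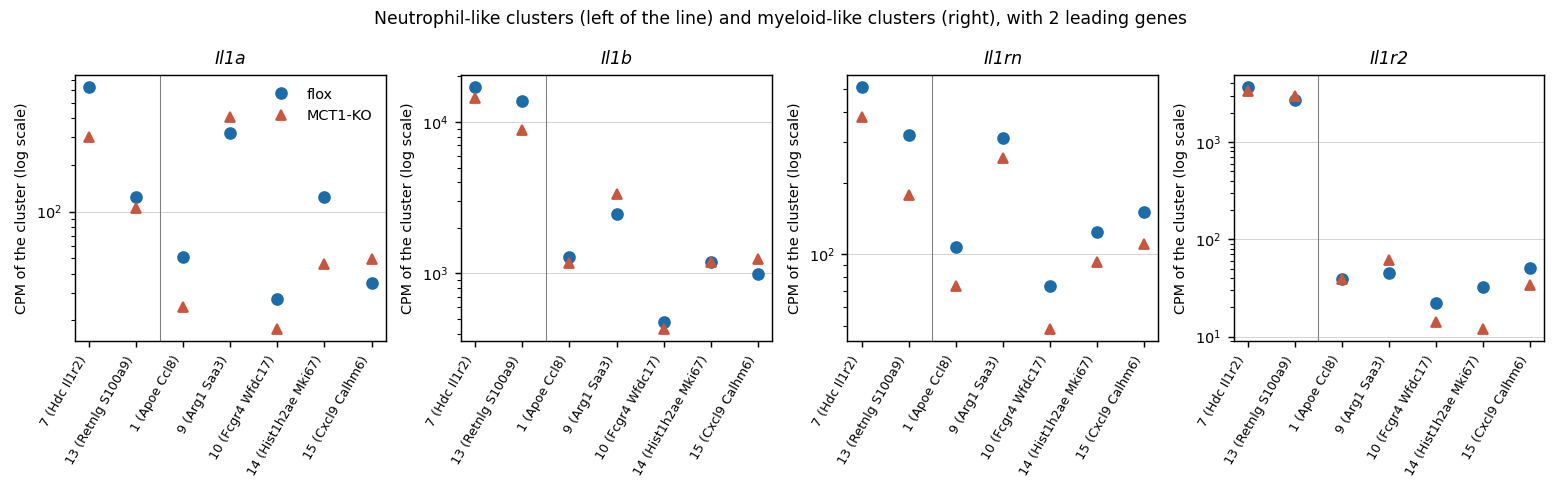
CPM (y axes, log scale) of Il1a, Il1b, Il1rn and Il1r2 in the 2 neutrophil-like clusters, left of the vertical line, and the 5 myeloid-like clusters, with circles for flox and triangles for the library labelled MCT1-KO. Il1a is lower in the library labelled MCT1-KO in cluster 7 (ratio 0.478) and higher in cluster 9 (1.27), and Il1rn is lower there in all 7 clusters.

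Il18, the ligand that drives interferon gamma in T and NK cells, stood at 36.9 CPM (573 UMIs) in flox myeloid-like cells and 43.3 CPM (515 UMIs) in the others, a ratio of 1.17 (1.04 to 1.32). The ratio was above 1 in 5 of 5 myeloid-like clusters, from 1.01 to 1.71, but its interval included 1 in clusters 9, 10 and 14. Clusters of the same 2 libraries are not replicates. KPC-tumor-cell-like cells were second with 31.9 and 22.8 CPM, a ratio of 0.715 (0.658 to 0.777) that was below 1 in 5 of 5 tumor clusters. In tumor cluster 4 the interval included 1. The tumor cells held 57.1% of all Il18 UMIs. Their top 1% of cells carried 7.62% of these UMIs in flox and 9.94% in the other library, so the signal was spread over many cells. By contrast, the top 1% carried 37.5% and 41.8% of the Il1b UMIs of the same class. PSC-like, dendritic-like and neutrophil-like cells followed at 18.5 to 24.9 CPM in flox, with overlapping intervals.

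Il33, the alarmin ligand of ST2, stood at 143 CPM (320 UMIs) in flox PSC-like cells and 135 CPM (428 UMIs) in those of the library labelled MCT1-KO. The interval of the ratio, 0.941 (0.812 to 1.09), included 1, but the value depended on how the class was drawn. It was 3.93 (3.48 to 4.44) without integration, 1.30 (1.14 to 1.49) with cells classed by their own markers, 1.39 (1.23 to 1.57) without the upper gene limit as well, and 0.756 (0.650 to 0.878) with free RNA subtracted. A UMI was found in 35.5% and 35.9% of PSC-like cells, with a median depth of 8166 and 6920 UMIs, and in 2.43% and 1.76% of myeloid-like cells at 5898 and 4844. Thinned, with 27 and 38 PSC-like and 191 and 124 myeloid-like cells left out, the shares were 11.1% and 11.1% against 0.424% and 0.286%. The gene separated the 2 PSC-like clusters, at 145 CPM over both libraries in cluster 11, led by Col1a2, Sfrp1 and Cxcl13, and 7.75 CPM (2 UMIs) in cluster 24 of 40 cells, led by the mural genes Rgs5, Actg2 and Myh11. Of the PSC-like cells with an Il33 UMI, 74.0% held the fibroblast receptor gene Pdgfra and 55.7% held Dpt, against 35.0% and 21.99% of those without. Rgs5, by contrast, was found in 1.70% of cells with Il33 and 7.33% of cells without. Acta2 was found in 55.7% and 47.5%, Col1a1 in 95.7% and 83.45%, Cxcl13 in 38.3% and 20.3%, and Il1r1 in 67.2% and 43.3%. Cells with Il33 had more UMIs, a median of 9538 against 5610, whose part in these shares was not tested. KPC-tumor-cell-like cells were second at 25.2 CPM in flox and 15.6 CPM in the other library, and with their number and depth held 58.7% of Il33 UMIs.

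Il1rn, the receptor antagonist, stood at 430 CPM (395 to 467) in flox neutrophil-like cells and 300.2 CPM (266 to 338) in those of the library labelled MCT1-KO, a ratio of 0.699 (0.603 to 0.810). This was within 1.5-fold, but 3 alternatives passed it, at 0.463 with free RNA subtracted, 0.664 at a resolution of 0.4 and 0.665 with cells classed by their own markers without the upper gene limit. Myeloid-like cells followed at 146 and 113 CPM, a ratio of 0.772 (0.722 to 0.827). Il1rn was lower in the library labelled MCT1-KO in 2 of 2 neutrophil-like and 5 of 5 myeloid-like clusters. KPC-tumor-cell-like cells stood at 30.2 and 29.8 CPM, a ratio of 0.987 (0.912 to 1.07), and held 33.7% of all Il1rn UMIs. Ligand and antagonist were found in the same neutrophil-like cell in 37.9% of flox cells and 24.4% of the other cells, and 98.3% of neutrophil-like cells with Il1rn held Il1b in each library, close to the share of all cells of the class with Il1b.

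Il1r1, the signalling receptor, stood at 280 CPM (258 to 302) in flox PSC-like cells and 195 CPM (180 to 210) in those of the library labelled MCT1-KO, a ratio of 0.696 (0.621 to 0.779). It was found in 54.7% and 50.2% of PSC-like cells and in 2.55% and 5.40% of myeloid-like cells. Thinned, the shares were 24.2% and 16.6% against 0.339% and 1.14%. Clusters 11 and 24 had the same level over both libraries, 230 and 229 CPM. Their ratios lay on opposite sides of 1, at 0.666 and 1.71, the latter from 18 and 41 UMIs with an interval from 0.961. The direction in PSC-like cells depended on how the class was drawn: the ratio was 1.17 when each cell was classed by its own marker counts, 1.53 without the upper gene limit as well, and 3.90 without integration, where the class held 1455 flox cells in place of 234. Subtracting free RNA gave 0.538, past 1.5-fold. Endothelial-like cells were second at 28.9 CPM (19 UMIs) and 102 CPM (46 UMIs). KPC-tumor-cell-like cells stood lower at 17.0 and 24.4 CPM, but held 50.9% of the Il1r1 UMIs.

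Il1rap, the shared signalling subunit, stood at 156 CPM (202 UMIs) in flox neutrophil-like cells and 162 CPM (147 UMIs) in the others, a ratio of 1.04 (0.832 to 1.29). With free RNA subtracted the ratio was 0.662 (0.530 to 0.821), on the other side of 1 and past 1.5-fold. As for Il1b, the unlike shares removed from the class totals lower this ratio, so the shift is not particular to Il1rap. Unlike Il1a, Il1rap was higher in cluster 13, at 194 CPM over both libraries, than in cluster 7, at 132 CPM. PSC-like cells were second over both libraries, at 18.8 and 16.4 CPM, but dendritic-like cells stood at 17.3 CPM (12 UMIs) in the library labelled MCT1-KO. The intervals of the neutrophil-like class lay above those of PSC-like cells in both libraries. Il1r1 itself, which pairs with IL1RAP, was at 5.41 and 8.80 CPM in neutrophil-like cells, from 7 and 8 UMIs. Both subunits were found in 9.40% of flox PSC-like cells and 4.95% of those of the other library.

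Il1rl1, the receptor of IL-33, was rare, with 702 UMIs in all kept cells. T/NK-like cells had the highest level, at 9.17 CPM in flox and 13.1 CPM in the other library, but this rested on 19 and 21 UMIs in 25 cells. Their intervals overlapped those of KPC-tumor-cell-like cells in the library labelled MCT1-KO and of acinar-like cells in both, so its place as the leading class is not set apart by counting error. The ratio in T/NK-like cells, 1.43 (0.7325 to 2.815), rested on under 50 UMIs and was therefore not called. It lay above 1.5 in 4 alternatives, from 1.51 to 2.01, and is not among the members counted as past 1.5-fold in any of them. KPC-tumor-cell-like cells held 81.2% of its UMIs. Of the 25 T/NK-like cells with Il1rl1, 5 also held Foxp3, the factor of regulatory T cells (Clopper-Pearson interval of the share 6.83% to 40.7%), against 25 of the other 992 T/NK-like cells. Cd8a was found in 7 of the 25 and 451 of the 992, Cd4 in 5 and 148, and Gata3 in 3 and 110. Mast cells, which carry ST2, were few: 8 kept cells had 3 or more UMIs of mast cell and basophil markers, and they held 10 of the Il1rl1 UMIs. Endothelial-like cells had no Il1rl1 UMI in either library, which allows up to 4.57 and 6.64 CPM by a count of 3.

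Il1r2, the decoy receptor, stood at 3269 CPM (3171 to 3369) in flox neutrophil-like cells and 3227 CPM (3111 to 3346) in those of the library labelled MCT1-KO, a ratio of 0.987 (0.941 to 1.03). This interval included 1 as reported, but lay below 1 in 5 of 11 alternatives, with ratios from 0.633 (free RNA subtracted) to 0.935 (resolution 0.4). It was found in 91.4% and 93.2% of neutrophil-like cells, against 6.27% and 4.24% of KPC-tumor-cell-like cells, and after thinning in 86.2% and 89.7% against 0.938% and 0.370%. Il1b and its decoy were found together in 89.6% and 89.8% of neutrophil-like cells. Dendritic-like cells were second, at 348 and 492 CPM. Dendritic-like cells with Il1r2 held Xcr1, a marker of cross-presenting dendritic cells, in 22.8% and those without in 57.5%. T/NK-like cells stood at 66.6 and 63.7 CPM, and 9.01% of those with Il1r2 held Foxp3, against 2.21% of those without, at a median depth of 4311 and 2594 UMIs. Cd4 was found in 24.3% and 13.9% of these cells, and Cd8a in 47.75% and 44.7%. Neutrophil markers summed to 272 CPM in flox T/NK-like cells and 180 CPM in the others, and their part in these shares was not tested. The 17 T/NK-like cells with Il1r1 held Trdc, the constant gene of gamma-delta T cell receptors, in 6 cells (35.3%), against 15 of the other 1000. Cd8a was also found in 6 of the 17, against 452 of the 1000.

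Il18bp, the IL-18 inhibitor, stood at 97.2 CPM (1507 UMIs) in flox myeloid-like cells and 77.0 CPM (915 UMIs) in the others, a ratio of 0.792 (0.729 to 0.861) that was below 1 in 5 of 5 clusters. In clusters 9, 10 and 15 the interval included 1. For the whole class, subtraction of free RNA gave 0.659 (0.604 to 0.719), past 1.5-fold. It was highest in cluster 15, led by the interferon-induced chemokine gene Cxcl9, at 134 CPM over both libraries. Among tumor clusters it was likewise highest in the one led by the interferon-induced genes Cxcl10 and Gbp6, cluster 19, at 45.3 CPM against 10.4 to 17.2 CPM in the other 4. All other named classes lay below 30 CPM in both libraries. Ligand and inhibitor were found together in 8.11% of flox myeloid-like cells and 6.12% of the others.

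Across the 10 classes, the genes with patterns most like those of the members were measured by Pearson's r of log2(CPM + 1) with both libraries summed, among 12699 genes. The points share libraries, clusters and depth, so the values are a description. For Il1b the nearest was Nlrp3, the inflammasome sensor (r = 0.993), and for Il1a Cd33 (0.977). Il1rn lay nearest to Cd14 (0.959), Il1r2 to Arih2 (0.955) and Il1rap to Dym (0.973). Il33 lay nearest to Serpinf1 (0.982), and Lum, itself a marker of the PSC-like class, was among the 3 nearest (0.952). Il1r1 lay nearest to Cdkn1c (0.979) and Tagln (0.978), Il18 to Nxt2 (0.959), Il18bp to Ctsa (0.944) and Il1rl1 to Zfp687 (0.948).

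The comparison of the libraries was then made in every class in which a gene had at least 50 UMIs over both. In neutrophil-like cells 6 members were measured at this depth, of which none was 1.5-fold or more higher in the library labelled MCT1-KO and 2 were lower, Il1a and Il18bp (0.633, 0.328 to 1.17). Of 4876 genes in that class, 14.4% were higher and 10.6% lower by this measure. Markers of macrophages and monocytes summed to 2246 CPM in flox neutrophil-like cells and 1236 CPM in the others, and their part in these ratios was not tested. Free RNA, estimated from acinar markers, made up 59.9% and 37.2% of the UMIs of the class. With it subtracted 7 of the 10 members were 1.5-fold or more lower in their leading class. Il1r2 was among them (0.633), as were Il1r1 and Il18bp, which lead in other classes. Removing unlike shares of the class totals lowers the ratios of genes rare in free RNA. Neutrophil markers themselves went from 72273 and 77583 CPM to 178277 and 122941 CPM. The share of all genes this much lower was not measured under this setting, so the count has no background. In myeloid-like cells 1 of 9 members was higher, Il1r1 (4.71 and 12.9 CPM, ratio 2.73, 2.06 to 3.67), and none was lower, beside 9.23% higher and 8.96% lower of all genes. Markers of KPC tumor cells, a class with more Il1r1, summed to 362 and 563 CPM in myeloid-like cells, and their part in this ratio was not tested. In PSC-like cells 2 of 8 were higher, Il1b and Il1rn, and none lower, beside 9.97% and 11.2%, and both calls depended on the settings.

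Il1b in PSC-like cells stood at 79.8 CPM in flox and 163 CPM in the library labelled MCT1-KO, a ratio of 2.05 (1.72 to 2.44). The UMIs were concentrated, with 38.8% and 41.1% of them in the top 1% of cells. Found in 29.5% and 22.9% of cells, and in 6.28% and 6.48% after thinning, the gene had a lower share of cells in the library labelled MCT1-KO before thinning and a similar one after it. With likely doublets left out, the ratio was 1.01 (0.784 to 1.30), and with cells classed by their own markers it was 1.21, or 1.33 without the upper gene limit. It was higher without integration, at 3.09 (2.78 to 3.44). With free RNA subtracted 0 Il1b UMIs were left in flox and 396 in the other library. The estimate for flox was at least the whole count, so this setting gives no usable ratio. Il1rn in the same class had a ratio of 1.68 (0.988 to 2.94) from 21 and 50 UMIs. Without integration it was 0.693 (0.531 to 0.891), and with cells classed by their own markers 1.03, or 0.979 without the upper gene limit. Macrophage and monocyte markers summed to 1109 and 1264 CPM in PSC-like cells and neutrophil markers to 110 and 114 CPM, and KPC tumor markers summed to 606 and 868 CPM. For its own PSC population, the study lists Il1b, Il18bp and Il33 as higher in flox, with other cell classes and another measure. For Il1b that is opposite to the direction given here.

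In dendritic-like cells 1 of 3 members was higher, Il1b with a ratio of 2.15 (1.98 to 2.34), and 1 lower, Il1a at 0.491 (0.243 to 0.925), beside 9.26% and 12.8% of all genes. The Il1b ratio lay between 1.91 and 3.42 in the 11 alternatives tried, the highest with likely doublets left out, and Il1b was found in 63.2% of flox and 55.0% of the other cells, or 33.6% and 45.5% after thinning. Dendritic markers summed to 1665 and 1023 CPM in this class, T/NK markers to 122.9 and 11.55 CPM and KPC tumor markers to 335.5 and 640.8 CPM. Macrophage and monocyte markers summed to 1113 and 896 CPM and neutrophil markers to 110 and 136 CPM. The median depth was 10043 and 5894 UMIs, and the part of these differences in both ratios was not tested. In T/NK-like cells none of 3 was higher and 2 were lower, Il1b (0.640) and Il1rn (0.555, 0.282 to 1.04), beside 7.02% and 9.50%. The Il1b ratio was 0.477 at a resolution of 0.4 and 0.682 (0.518 to 0.892), within 1.5-fold, with mitochondrial, ribosomal-protein and acinar marker genes left out of the CPM total. With free RNA subtracted no Il1b UMI was left in either library, so no ratio could be formed. The Il1rn ratio was 0.677 with likely doublets left out, 0.920 at a resolution of 0.4 and 0.706 with cells classed by their own markers. With free RNA subtracted Il1rn kept 0 UMIs in flox, where the estimate was at least the whole count, and 5.07 in the other library. This gives no usable ratio. Macrophage and monocyte markers summed to 1020 and 487 CPM and neutrophil markers to 272 and 180 CPM there, and their part in both ratios was not tested. In endothelial-like cells 1 of 2 was higher, Il1r1 with 3.52 (2.02 to 6.36), and none lower, beside 7.27% and 14.4%. Classed by their own markers, endothelial-like cells had an Il1r1 ratio of 1.14, or 1.49 without the upper gene limit, and the median depth of the class was 4041 UMIs in flox and 1830 in the other library.

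KPC-tumor-cell-like cells, which were implanted and do not share the genotype of the host, had the most members past 1.5-fold. All 10 had at least 50 UMIs, 2 were higher in the library labelled MCT1-KO and 5 were lower, beside 6.12% and 7.86% of 13166 genes. Il1rl1 stood at 3.74 CPM in flox and 8.24 CPM in the other library (ratio 2.20, 1.80 to 2.71), and Il1rap at 0.364 and 0.719 CPM from 12 and 39 UMIs (1.97, 1.01 to 4.14). The Il1rap call is weak: its count was under 50 UMIs in 4 alternatives, among them likely doublets left out (10 and 34 UMIs) and no integration (6 and 42), and its interval reached below 1 in several, as at a resolution of 0.4 (1.65, 0.893 to 3.22). Il33 stood at 25.2 and 15.6 CPM (0.618, 0.561 to 0.682). Il18bp stood at 22.9 and 10.4 CPM (0.456, 0.408 to 0.509). The remaining lower genes, Il1a (0.599), Il1b (0.605) and Il1r2 (0.630), lead in neutrophil-like cells. Neutrophil markers summed to 137 and 68.3 CPM and macrophage and monocyte markers to 384 and 176 CPM in these tumor cells. PSC markers, of the class in which Il33 leads, summed to 2168 and 1376 CPM. The part of these 3 marker lists in the lower ratios of Il1a, Il1b, Il1r2, Il18bp and Il33 was not tested. With cells classed by their own markers all 3 of Il1a (0.805), Il1b (0.687) and Il1r2 (0.675) lay within 1.5-fold. Il1r2 did so too with likely doublets left out (0.695), without the upper gene limit (0.6999) and with the members left out of the clustering genes (0.753). Without integration the ratios were lower for Il1a (0.330), Il1b (0.388) and Il33 (0.411), and Il1r1 passed 1.5-fold (1.61). With free RNA subtracted, Il1a had a ratio of 1.61 (0.896 to 3.05) and Il1r2 one of 1.77 (1.25 to 2.56), on the other side of 1. Il1b kept 0 UMIs in flox and 781 in the other library. The free RNA estimated for flox was at least its whole count there, so this setting gives no usable ratio for Il1b. Il33, Il18bp, Il1rl1 and Il1rap kept their direction, at 0.616, 0.484, 2.21 and 3.08 (the last from 6.12 and 33.4 UMIs), so that 2 of the 5 lower members were still lower.

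**Figure D3:**
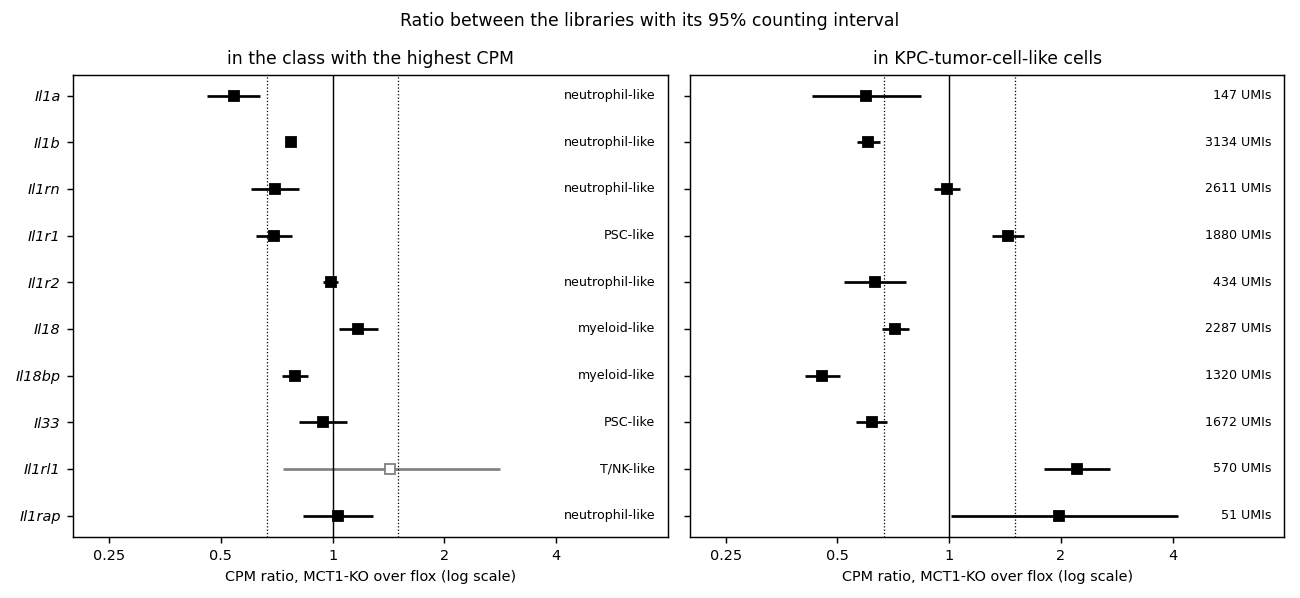
Ratio of CPM, library labelled MCT1-KO over flox (x axis, log scale), with 95% counting intervals as bars, for each gene in its leading class (left, class named at the right edge) and in KPC-tumor-cell-like cells (right, UMIs of both libraries at the right edge). Dotted lines mark 1.5-fold, and the open grey square marks fewer than 50 UMIs. Only Il1a passes 1.5-fold on the left, and 7 genes do on the right.

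The direction was shared by the tumor clusters. Il18bp had a ratio below 1 in 5 of 5 clusters, from 0.362 to 0.567, and Il33 in 5 of 5, from 0.376 to 0.855. Il1r1 was above 1 in 5 of 5, from 1.21 to 1.92, and Il1rl1 in 5 of 5, from 1.25 to 2.27. The intervals of Il33 in cluster 4 and of Il1rl1 in clusters 4 and 6 included 1, and clusters of the same libraries are not replicates. Il1rl1 also differed in level between the clusters. As Il1rl1 was among the genes used for clustering, this is in part how the clusters were drawn. It stood at 13.6 CPM over both libraries in cluster 3, led by the cytokine genes Lif and Il11, and at 12.2 CPM in cluster 19, against 1.37 CPM in cluster 4, led by Cxcl15, Bdkrb2 and Enpp2. In cluster 3 its UMIs were found in 34 of 666 flox cells and 138 of 1160 cells of the other library. Barcodes with 10 to 100 UMIs, which hold free RNA in place of cells, had ratios on the same side of 1, at 0.497 for Il18bp, 0.557 for Il33, 1.24 for Il1r1 and 1.77 for Il1rl1. Classed by their own markers with no upper limit on genes, KPC-tumor-cell-like cells had an Il1rl1 ratio of 1.40, and without integration it was 1.485 (1.18 to 1.89), both within 1.5-fold.

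**Figure D4:**
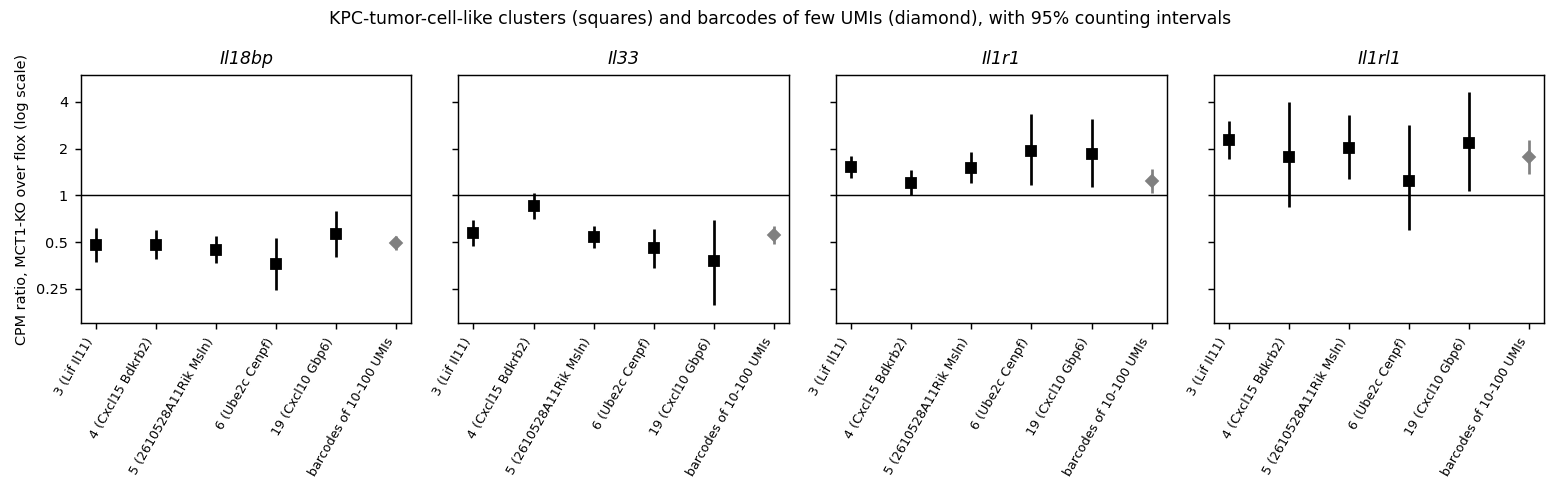
Ratio of CPM, library labelled MCT1-KO over flox (y axes, log scale), of Il18bp, Il33, Il1r1 and Il1rl1 in each KPC-tumor-cell-like cluster (black squares, with 2 leading genes) and in barcodes with 10 to 100 UMIs (grey diamonds). Bars are 95% counting intervals. Il18bp and Il33 lie below 1 and Il1r1 and Il1rl1 above 1 in all 5 clusters and in the low-UMI barcodes, although the intervals of Il33 in cluster 4 and of Il1rl1 in clusters 4 and 6 reach 1.

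The other genes of the pathway were taken from a list of 45 with 4 groups: other family ligands and receptors, inflammasome and processing, signalling, and feedback and target genes of NF-kB. They were counted in the classes in which a member leads. In neutrophil-like cells 27 had at least 50 UMIs, with 4 past 1.5-fold higher and 8 lower in the library labelled MCT1-KO, beside 14.4% and 10.6% of all genes, and a median ratio of 1.05 (all genes 1.08). The lower ones included 4 of 7 measured target genes, among them the chemokine Cxcl2 (29903 and 12947 CPM, ratio 0.433) and Ptgs2, the inducible cyclooxygenase (1459 and 559 CPM, 0.383), with Cxcl1 at 0.657 and Ccl2 at 0.326. Il36g, another family ligand, stood at 278 and 130 CPM (0.467), and Casp1, Gsdmd and Nlrp1b of the inflammasome group at 0.606 (0.340 to 1.04), 0.610 and 0.291. Higher were Il18rap, a subunit of the IL-18 receptor (146 and 285 CPM, 1.95), the adaptor Pycard (1.77), the kinase Map3k7 (2.14) and Nfkb1 (1.74). Macrophage and monocyte markers summed to 2246 and 1236 CPM in neutrophil-like cells. Ccl2 stood at 101 and 33.0 CPM there, against 461 and 598 CPM in myeloid-like cells, and Nlrp1b at 34.0 and 9.90 against 57.0 and 21.8 CPM. The part of such markers in these ratios was not tested.

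In myeloid-like cells 5 of 36 pathway genes were higher and 1 was lower, beside 9.23% and 8.96% of all genes, with a median ratio of 1.06 (all genes 1.02). Nlrp3 stood at 147 and 266 CPM (1.81), Il6 at 7.35 and 32.1 CPM (4.36), Cxcl1 at 1.78, the serine protease gene Prtn3 at 2.82 and Csf3 at 5.71 from 16 and 70 UMIs, while the sensor gene Nlrp1b was at 0.382. KPC tumor markers were also higher in the library labelled MCT1-KO in this class (362 and 563 CPM), in PSC-like cells (606 and 868 CPM) and in T/NK-like cells (359 and 601 CPM), and their part in the ratios of Cxcl1, Il6, Csf3 and the other pathway genes was not tested. In PSC-like cells 6 of 29 were higher and 1 lower, beside 9.97% and 11.2%, with a median of 1.05 (all genes 0.979). The chemokine genes Cxcl1 (672 and 1211 CPM, 1.80), Cxcl2 (1.65) and Ccl2 (1.59) were higher with Nlrp3 (3.56, 16 and 81 UMIs), Prtn3 (2.60) and Il1rl2, the receptor of the IL-36 ligands (2.11), and Lif was lower (0.551). Over both libraries Nlrp3 was at 1207 CPM in neutrophil-like and 198 CPM in myeloid-like cells, and Cxcl2 at 22907 and 2669 CPM. The Il1b ratio in PSC-like cells was 1.01 with likely doublets left out. The part of doublets in the Nlrp3 and Cxcl2 ratios was not tested. In T/NK-like cells 4 of 23 were higher and none lower, beside 7.02% and 9.50%, with a median of 1.08 (all genes 0.976): Nfkb1 (1.61), Rela (1.51), Nfkbia (1.502) and Cxcl1 (3.78). The receptor of IL-18 in this class, Il18r1, stood at 136 and 176 CPM, within 1.5-fold. Myd88, the shared adaptor, was listed at 0 UMIs in both libraries, beside 5253 UMIs of Irak1 and 5101 of Irak4 in kept cells. Whether reads of Myd88 were counted at all is not known, so its absence cannot be read from this. The genes of the IL-36 ligands appear in the files under their older Il1f symbols.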

How the data were processed

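Live cells of in situ KPC tumors were sequenced as 1 flox library and 1 library labelled MCT1-KO. The authors deposited raw UMI counts per gene and barcode for each library, before any filter on barcodes and without normalization. The labels name the SeekOne MM kit, whereas the methods name 10x Genomics or SeekOne DD. The submitters' processing notes name Seurat 4.0.0 and GRCh38, a human build, although every gene identifier is a mouse Ensembl one. The mouse build and annotation used for counting are not given in the sources used here. Gene positions were taken by identifier from GENCODE vM21 on GRCm38. Il1a, Il1b, Il1r1, Il1r2, Il18, Il18bp and Il1rap overlap another annotated gene, so reads could be shared.

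Barcodes with at least 500 UMIs, 200 to 5000 genes and at most 8% mitochondrial UMIs were kept, as the rule for these genes asks. Cells were log-normalized (factor 10000), integrated by anchors on 2000 variable genes and clustered (20 dimensions, resolution 0.8) with Seurat 5.3.0 in R 4.3.3. A cluster was named where at least 3 markers of a class were found in 10% of its cells and lay 2-fold or more over the median cluster. It stayed unnamed where markers of another class led it or were found in it more fully. It also stayed unnamed where its cells held few UMIs and fewer than 2 markers of the class were among its 10 leading genes. Likely doublets, taken as the top 8% of each library by scrublet score (scanpy 1.11.5), were kept in the values reported and left out in an alternative. UMIs were summed per class and library with python 3.11.15 and numpy 2.4.6. Exact Poisson, conditional ratio and Clopper-Pearson intervals (95%) were computed with scipy 1.17.1 and cover counting error only. A ratio was counted as past 1.5-fold only with at least 50 UMIs over both libraries. Barcodes with 10 to 100 UMIs served to measure free RNA. In an alternative it was subtracted from the sums and totals of each class, with its share taken from acinar markers. Where the estimate was larger than a count, nothing was left of that count. Cells were thinned to 1000 UMIs to compare shares of cells. The script for ratios was tested on simulated data with known fold changes.

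The genes named are the 10 members, Slc16a1, the pathway genes past 1.5-fold in a class in which a member leads, and the 3 genes with the highest correlation with each member, of which 1 or 2 are given. Other genes were named after their values were seen, as were the markers used to describe cells with a member. The members, the gene lists and the comparisons were chosen with earlier results of these data known, and the thresholds for naming clusters were set after the clusters had been seen. Alternatives changed the filters on cells, doublets, clustering and classing, the CPM total, free RNA, depth and the fold required. The alternatives that left members out of the clustering genes or left out barcodes shared by the libraries were added after seeing the data.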

Additional observations from a re-analysis of the deposited data

Results flagged for a closer look

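Il1b differed between the libraries in opposite directions in different classes, none of which was tested. It was higher in the library labelled MCT1-KO in PSC-like cells (ratio 2.05), dendritic-like cells (2.15) and acinar-like cells (1.79, from 5 and 125 UMIs, 0.748 to 5.62). It was lower in KPC-tumor-cell-like cells (0.605), T/NK-like cells (0.640), B-like cells (0.379) and plasma-like cells (0.236), with 31 and 52 UMIs in B-like and 66 and 21 in plasma-like cells. Of all genes, 41.2% were 1.5-fold or more higher in acinar-like cells (median ratio 1.33), and 19.1% and 13.4% were lower in B-like and plasma-like cells. In B-like cells of the flox library 23 of the 31 UMIs came from 1 cell, and in plasma-like cells 35 of 66. When cells were classed by their own markers, the ratios were 0.953 in B-like, 1.04 in plasma-like and 0.706 (0.559 to 0.904) in acinar-like cells, the last now below 1, and 0.534 without the upper gene limit. With likely doublets left out, acinar-like cells (1.45) were within 1.5-fold, and B-like cells (0.708) held too few UMIs for a call, 5 and 15. With free RNA subtracted, KPC-tumor-cell-like cells kept 0 Il1b UMIs in flox and 781 in the other library. The estimate for flox was at least the whole count there, so no direction can be read from this setting.

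Il1rn likewise stood at 1.68 in PSC-like cells (21 and 50 UMIs) and 0.555 in T/NK-like cells (35 and 15 UMIs), and the difference between these classes was not tested. Both counting intervals include 1, the ratio in PSC-like cells was 0.693 without integration, and that in T/NK-like cells was 0.920 at a resolution of 0.4.

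In clusters without a name, Il18 reached 100.2 CPM over both libraries in cluster 22, led by Ttr, Fxyd3 and Epcam, above the level of 39.7 CPM in myeloid-like cells. All 54 UMIs were in 8 of 34 flox cells, with 21 in a single cell, and the 43 cells of the other library held none. Il18bp reached 99.8 CPM in cluster 23, led by T cell genes such as Nkg7 and Trbc2 and left unnamed for its markers of another class, against 88.4 CPM in myeloid-like cells. It stood there at 88.2 CPM in 33 flox cells and 125 CPM in 17 cells of the other library.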

How the results depend on the processing

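The class with the highest level was the same for 10 of 10 members in 8 of the 11 alternatives that changed cells, classes or totals and in each library alone, and for 9 of 10 in the other 3 (no integration, and both ways of classing cells by their own markers). The number of members past 1.5-fold in their leading class, 1 as reported, was 2 (both lower) at a resolution of 0.4, 3 (2 higher, 1 lower) without integration, 3 (1 higher, 2 lower) with cells classed by their own markers and no upper limit on genes, 7 (all lower) with free RNA subtracted, and 0 at 2-fold. The cause of these changes was not tested. Subtracting free RNA took unlike shares of the class totals from the libraries, and the share of all genes past 1.5-fold was not measured under it. Without integration the PSC-like class held 1455 flox and 458 other cells, and Il1r1 and Il33 had ratios of 3.90 and 3.93. With cells classed by their own markers the Il1r1 ratio was 1.17, and 1.53 without the upper gene limit. Il1a in neutrophil-like cells lay between 0.347 (free RNA subtracted) and 0.594 (likely doublets left out). In other classes Il1r1 in myeloid-like cells reached 4.55 with free RNA subtracted, and Il18bp in KPC-tumor-cell-like cells lay between 0.392 and 0.484. Of the pathway genes, 29 of 115 gene and class pairs were past 1.5-fold (19 higher, 10 lower). Of all genes in the classes counted, 7.02% to 14.4% were higher and 8.96% to 11.2% lower. The pathway pairs past the limit were 18 of 75 with at least 200 UMIs (13 higher, 5 lower) and 14 at 2-fold (8 higher, 6 lower). For these settings the share over all genes was not measured. The share of cells with a UMI was higher in flox for 7 members in their leading class and for 5 after thinning. The same count over all genes was not measured, so these numbers have no background. Median depth was also higher in flox in these classes, as in neutrophil-like (1471 and 1076 UMIs) and PSC-like cells (8166 and 6920 UMIs). The limits include free RNA and how classes were drawn, as these values show, and depth and replication: Il1rl1 and Il1rap had 702 and 852 UMIs in all kept cells, and 1 library per genotype gives no spread between animals. No paired analysis was possible because each genotype has 1 library and no result comes from a test.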

Other observations

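In KPC-tumor-cell-like cells, Elane, the gene of neutrophil elastase, which can cleave IL-1 family precursors, stood at 15.1 CPM in flox and 0.129 CPM in the library labelled MCT1-KO. Ctsg, the gene of another granule protease, stood at 3.74 CPM in flox and had no UMI in the other library, which allows up to 0.0553 CPM by a count of 3. Prtn3, the third granule protease gene of the list, stood at 26.6 and 19.2 CPM. Over both libraries Elane was at 1.36 CPM in neutrophil-like cells. Elane and Ctsg were on the pathway list and were singled out after their values had been seen.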
